A study of Mus musculus with 8 samples.

Results

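Testes with full spermatogenesis were compared between mice with wild-type Tent5c (Tent5c wt/wt, here wt) and mice with a catalytically dead allele in both copies (Tent5c dcat/dcat, here dcat), all of them treated with vehicle. The comparison used 4 of the 8 libraries of the series, chosen by their labels as the vehicle-treated samples, with 2 mice per genotype. All 4 mice were adult males that received a single intraperitoneal injection of the solvent, a mixture of DMSO and water, 4 weeks before the testes were taken. The other 4 libraries came from mice of the same genotypes that received busulfan (an alkylating agent toxic to dividing germ cells) at 20 mg/kg, and they are used only where a genotype difference is set beside that after vehicle. The dcat allele was carried in every cell of the animal, so a difference cannot be assigned to germ cells or to somatic cells by the genotype. Each library was made from the poly(A) RNA of the whole testis of 1 mouse and read by Nanopore direct RNA sequencing, in which 1 read is 1 RNA molecule and the length of its poly(A) tail is estimated from the raw current.

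TENT5C is a cytoplasmic poly(A) polymerase that adds adenosines to the tails of existing mRNAs, and it is known for acting on mRNAs of secreted proteins. A poly(A) tail is bound by poly(A)-binding proteins, which protect the mRNA from decay and promote its translation. In the testis, elongating spermatids no longer transcribe and depend on stored mRNAs with long tails. The vehicle-treated testis therefore holds a large pool of stored spermatid mRNAs next to the mRNAs of dividing germ cells, Sertoli cells and the hormone-producing Leydig cells.

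The poly(A) tail is added at the 3′ end of the transcript, and the last 30 bases before it are shown for the 6 transcripts on which the tail results turn. They are written 5′ to 3′ in the sense of the RNA (T for U) from GENCODE vM21 on GRCm38, and capitals mark the last AATAAA, the hexamer that directs cleavage and polyadenylation.
Insl3 (chr8:71690546-71690575, plus strand): ccaaaaagtctaAATAAAaaagcaacttca
Ptgds (chr2:25466709-25466738, minus strand): caaagaAATAAAagtccaaagcaagtcaga
Odf1 (chr15:38226706-38226735, plus strand): gtaggaaacttaatacagaattgcatctga
Smcp (chr3:92583867-92583896, minus strand): atagcaaagaaataaaagagcaAATAAAaa
Prm2 (chr16:10791380-10791409, minus strand): gccacctgccaAATAAAgcttgacacgaga
Pebp1 (chr5:117282654-117282683, minus strand): gtcaagtacaAATAAAaaggcattgcattc
The annotated end of Odf1 held neither AATAAA nor ATTAAA in this window. Of the 714 transcripts tested for tails that had a sequence, 54.62% held AATAAA in their last 30 bases on the sense strand and a further 10.5% held only ATTAAA. The Insl3 transcript ends at the same base as a transcript of Jak3 that lies upstream and runs into it, so a short read of the shared last exon could be given to either.

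The libraries held 50757 and 72138 reads in wt and 29574 and 129074 reads in dcat (replicates 1 and 2). The dcat replicates were thus the shallowest and the deepest of the 4, and dcat replicate 1 also had the largest share of mitochondrial reads (6.08%, against 4.38% to 4.82% in the other 3). Of the 2783 deposited transcripts, 720 reached 10 reads in all 4 libraries and were tested for tail length. They came from 626 named genes and held 68.0% of the vehicle reads. Markers of late spermatids, which are the defining germ cells of a testis with complete spermatogenesis, were abundant in all 4 libraries. They took between 98465 and 125080 CPM, the reads of a transcript or list per 1000000 reads of its library.

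Tent5c itself was read in every library. The dcat allele leaves a transcript, so the read count is no check of the genotype. The transcript (ENSMUST00000061455, GRCm38 chromosome 3, 100468057 to 100489324, 2 exons) had 42 and 56 reads in wt and 22 and 115 in dcat. On the log2 scale dcat exceeded wt by 0.06 (SE 0.38), with an adjusted p of 1.0 by edgeR. Its mean tail was 171 and 169 nt in wt and 145 and 174 nt in dcat, so dcat replicate 1 lay below and dcat replicate 2 above both wt libraries. The difference of -10.4 nt (95% confidence interval -30.4 to 9.62) did not pass the threshold.

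No transcript differed in abundance between the genotypes by the main test. With edgeR's quasi-likelihood test, 0 of 2783 transcripts (0%) had an adjusted p under 0.05. Without adjustment 65 (2.34%) had a p under 0.05, 45 of them higher (1.62%) and 20 lower (0.719%) in dcat. DESeq2 likewise called 0, with 5 at an unadjusted p under 0.05.

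The transcript with the lowest p was Hbb-bs (ENSMUST00000023934), which encodes adult beta globin and marks red blood cells rather than testis cells. It had 7 and 16 reads in wt and 0 and 1 in dcat, where a count of 0 in dcat replicate 1 allows up to 101 CPM. Its adjusted p was 0.175 with all 8 libraries in the fit and 0.00567 with only the 4 vehicle libraries, where it was the 1 transcript called. The alpha globin transcript Hba-a2 had 2 and 5 reads in wt and 4 and 1 in dcat, so its groups overlapped after vehicle. After busulfan both globins were read more in wt, Hbb-bs with 48 and 61 reads against 0 and 2 in dcat and Hba-a2 with 13 and 28 against 0 and 0. The other transcripts with the lowest p were also read little. Among those lower in dcat, Cdk5, a kinase best known from neurons, had 3 and 4 reads in wt and none in dcat. Napa, a vesicle fusion factor, had 9 and 13 reads in wt against 0 and 8 in dcat. A transcript of the cyclophilin gene Ppia (ENSMUST00000213200) had 20 and 16 against 2 and 16, and the actin cross-linker Actn4 had 2 and 2 against none. Among those higher in dcat, the Golgi mannosidase Man2a1 had 0 and 1 reads in wt and 2 and 14 in dcat. The deubiquitinase Usp32 had 1 and 6 against 6 and 29, Tsc22d1 had 1 and 5 against 8 and 21, ENSMUST00000100847 had 2 and 4 against 13 and 15, and Smpx had none against 3 and 4. None of these passed the adjusted threshold.

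The cell-type lists were next used to see whether the cell makeup of the testes moved with the genotype. None of the 22 lists had a transcript past the adjusted threshold, and the median log2 fold change over all 2783 transcripts was 0.00. In bulk tissue, fewer cells of a type and less RNA per cell cannot be told apart. The 9 Leydig genes read, among them Insl3 and Cyp17a1, together took 5654 and 6086 CPM in wt and 7236 and 4005 in dcat. Insl3 gave 206 of the 287 reads and 302 of 439 in wt, and 141 of 214 and 277 of 517 in dcat. The sum thus mainly follows Insl3, and the Leydig genes apart from it were not tested as a group. The 13 Leydig transcripts had a median log2 fold change of 0.18. The 10 Sertoli genes took 4098 and 4242 in wt and 6053 and 3781 in dcat. For both somatic lists, with Insl3 in the Leydig sum, the dcat replicates lay on either side of the wt libraries. The 6 spermatocyte genes took 5457 and 4575 in wt and 4362 and 5175 in dcat. The 6 round spermatid genes, which include the acrosomal genes Acrv1 and Zpbp, took 2325 and 2052 in wt and 1285 and 2076 in dcat. The 16 late spermatid genes took 115866 and 125080 in wt and 98465 and 118862 in dcat. Their 30 transcripts had a median log2 fold change of -0.23, with 0 at an unadjusted p under 0.05.

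Rare cell types were at the limit of the depth. Peritubular genes had 5 and 21 reads in wt and 9 and 23 in dcat. Macrophage genes had 7 and 6 against 7 and 8, spermatogonial genes (Uchl1 alone was read) 2 and 5 against 5 and 7, and erythroid genes 9 and 21 against 4 and 2. These lists could show only very large differences.

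**Figure D1:**
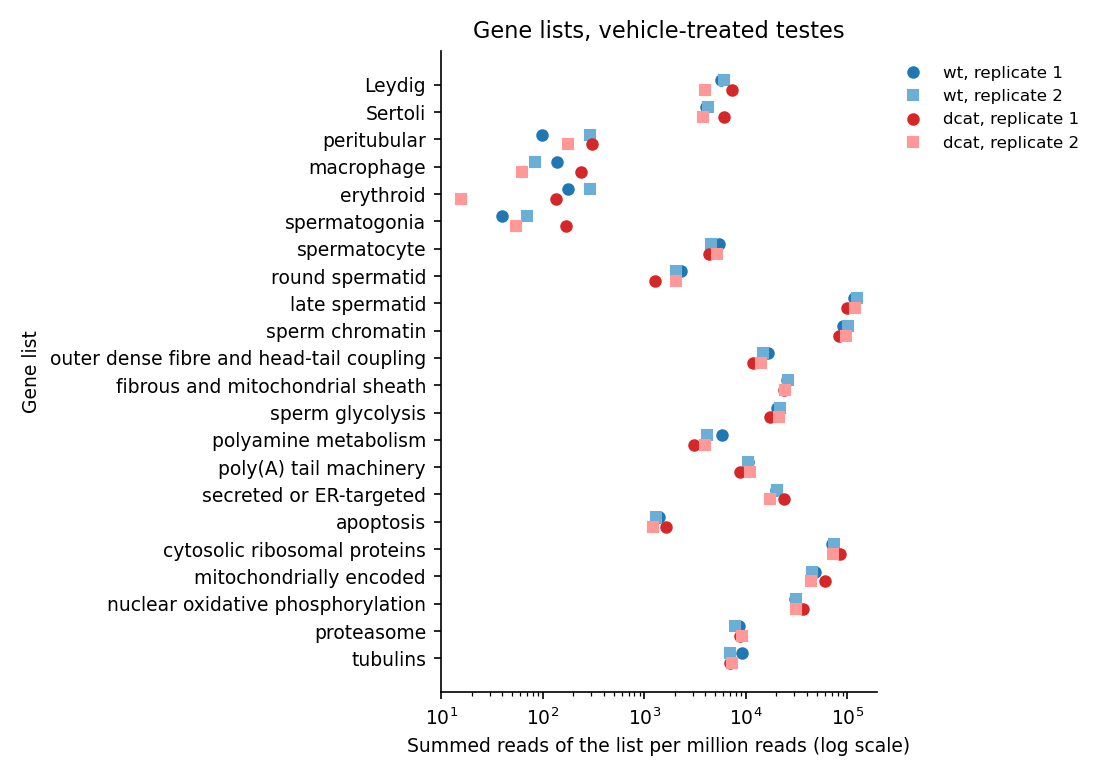
Summed reads of each gene list in CPM (log axis) in the 4 vehicle libraries, 1 point per library, blue for wt and red for dcat, circles for replicate 1 and squares for replicate 2. Late spermatid genes lie between 98465 and 125080 CPM in all 4 libraries. For Sertoli genes and for Leydig genes, where Insl3 gives most reads, the 2 dcat points lie on either side of the wt points.

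No transcript of the sperm-building genes passed the test for abundance. Taken by their most read transcript, the spermatid genes among the 19 chosen had log2 fold changes between -0.72 (Oaz3) and -0.01 (Tnp1). Oaz3 is an inhibitor of ornithine decarboxylase made in late spermatids. For most of these transcripts leaving out single libraries gave both signs, with Oaz3 and Smcp the exceptions. Among other well-read members of the sperm lists, Ropn1l and Asrgl1 of the sheath list had values above 0, at 0.31 (SE 0.33) and 0.45 (SE 0.34). The acrosomal genes went both ways, with Acr and Spaca1 at 0.27 (SE 0.45) and 0.21 (SE 0.49). Zpbp and Acrv1, which had more reads, were at -0.46 (SE 0.50) and -0.27 (SE 0.45). The median of the 7 round spermatid transcripts was -0.27. The most read transcript of the outer dense fibre gene Odf2 had 0.18 (SE 0.50), and its other transcripts had -0.30, 0.27, -0.05 and -0.35. The protamine transcripts, which encode the packaging proteins of sperm DNA, had -0.14 (Prm1, SE 0.41) and -0.12 (Prm2, SE 0.29). Tnp2, a transition protein that precedes the protamines, had -0.13 (SE 0.40). Odf1, an outer dense fibre protein of the sperm tail, had 177 and 277 reads in wt and 105 and 372 in dcat (-0.20, SE 0.34). Smcp, a protein of the mitochondrial capsule, had 208 and 263 against 71 and 405 (-0.46, SE 0.34). The sheath scaffold Akap4 had -0.35, and the sperm glycolytic enzymes Gapdhs, Pgk2 and Ldhc had -0.04, -0.18 and -0.14. Crisp2 and Tppp2 had -0.10 and -0.06, and Odc1, the first enzyme of polyamine synthesis, had -0.02. Less read transcripts of these genes went both ways. They had -0.82 and -0.76 (Gapdhs), 0.37 and 0.86 (Ldhc), -0.56 and -0.43 (Akap4), 0.68 (Prm1) and -0.006 (Smcp). Another transcript of Oaz3 had -0.25 and another of Odc1 -0.73, and the others of Crisp2 lay between -0.30 and 0.88. Insl3, a peptide hormone of Leydig cells, had -0.30 (SE 0.33) and Ptgds, a prostaglandin D synthase, 0.01 (SE 0.43). Pebp1, a phosphatidylethanolamine-binding protein, had 0.05 and Apoe, a lipid carrier, -0.32. Over the 720 transcripts with 10 reads in each library the median SE of a log2 fold change was 0.42, so modest changes were not detectable at this depth.

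Tail lengths over the whole transcriptome did not separate the genotypes. The mean tail over all reads was 138.7 and 140.7 nt in wt and 134.4 and 144.4 nt in dcat. The difference of dcat minus wt was -0.319 nt in all, -4.36 nt within the first multiplexed library and 3.73 nt within the second. The share of reads with short tails, 30 to 120 nt, was 36.0% in wt replicate 1 (35.6 to 36.4, Wilson 95% limits) and 35.1% in wt replicate 2 (34.7 to 35.4). It was 40.4% (39.9 to 41.0) and 32.8% (32.6 to 33.1) in the dcat replicates. Longer tails, from 120 to 210 nt, accounted for 53.7% in both wt libraries and 49.7% and 55.4% in dcat. For all 3 measures the dcat libraries lay on either side of the wt libraries, with p = 1.0 in exact two-sided permutation tests. With 2 against 2 libraries that test cannot go below 0.33. The read intervals cover counting error only, and the gap between the dcat replicates was far larger than they are.

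By transcript, tails were compared with limma over the 720 transcripts. Only Insl3 passed the adjusted threshold, with a shorter tail in dcat (1 of 720, 0.139%), and 0 transcripts were longer (0%). At an unadjusted p under 0.05, 14 were shorter (1.94%) and 20 longer (2.78%), 34 in all (4.72%). The median difference over the 720 transcripts was 1.49 nt, and 43.6% of the differences were below 0. Both dcat libraries lay below both wt libraries for 74 transcripts (10.3%) and above both for 150 (20.8%).

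Insl3 (ENSMUST00000034261, chromosome 8, 71689214 to 71690575, 2 exons) encodes insulin-like 3, which Leydig cells secrete and which drives the descent of the testis in the fetus. Its mean tail was 168 and 183 nt in wt and 148 and 144 nt in dcat, from 206, 302, 141 and 277 reads. Both dcat libraries lay below both wt libraries, and the 2 dcat values were within 5 nt of each other. The dcat mean was shorter than the wt mean, 146 ± 3.42 nt against 176 ± 10.7 nt (SD, n = 2 libraries each), by a limma difference of -29.9 nt (SE 5.42, 95% confidence interval -41.1 to -18.6, adjusted p = 0.0119). The difference was -19.9 nt within the first multiplexed library and -39.9 nt within the second. By size it was the 6th of the 720 differences.

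Insl3 tails were shorter in dcat over most of their distribution, with little difference at the short end between the first replicates. There the lowest decile was 81.0 nt in wt replicate 1 and 76.6 nt in dcat replicate 1. The median read had 177 and 189 nt in wt and 152 and 145 nt in dcat. Short tails of 30 to 120 nt were carried by 16.5% (Wilson 95% limits 12.1 to 22.2) and 9.27% (6.49 to 13.1) of its reads in wt, and by 20.6% (14.7 to 28.0) and 31.0% (25.9 to 36.7) in dcat. The intervals of wt replicate 1 and dcat replicate 1 overlapped for these short tails. At the long end, tails over 210 nt accounted for 17.96% (13.3 to 23.8) and 28.8% (24.0 to 34.2) in wt and 8.51% (4.94 to 14.3) and 11.9% (8.61 to 16.3) in dcat. Insl3 reads with the longest tails were thus a smaller share in both dcat libraries than in either wt library. For these tails the interval of wt replicate 1 overlapped those of both dcat replicates. The Leydig gene Cyp17a1, an enzyme of androgen synthesis, was the only other Leydig transcript with enough reads. Its tails were 101 and 95.4 nt in wt and 105 and 117 nt in dcat, with both dcat values above both wt values.

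The call on Insl3 was lost with the multiplexed library as a replicate block (adjusted p = 0.981) and without wt replicate 2 (-22.3 nt, adjusted p = 0.999), and 9 of 15 alternatives kept it, with adjusted p from 8.59e-08 to 0.999 over the 15. Without dcat replicate 2, 9 transcripts passed, 4 longer and 5 shorter.

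**Figure D2:**
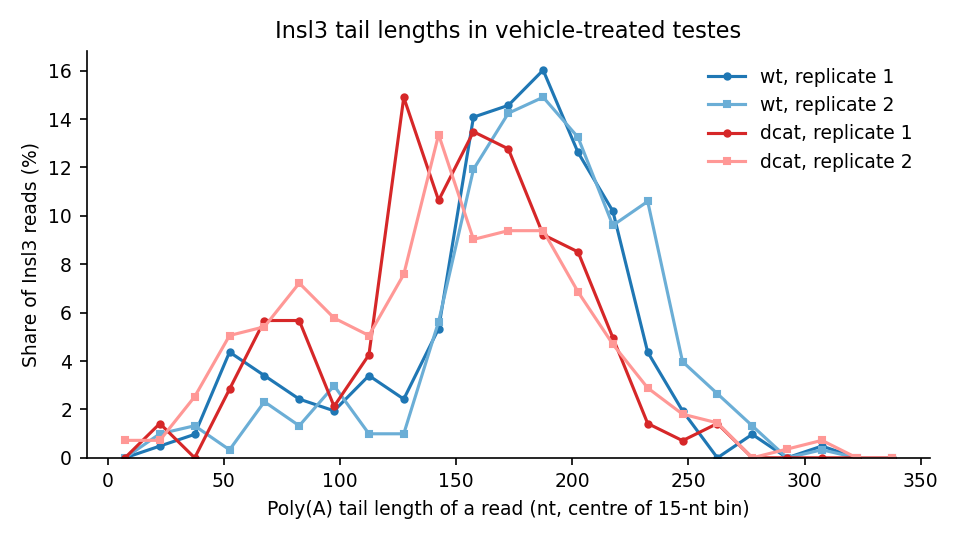
Share of Insl3 reads (%) by poly(A) tail length in bins of 15 nt, 1 line per vehicle library, blue for wt and red for dcat. The 2 wt lines peak in the bin from 180 to 195 nt, and the 2 dcat lines reach their highest bins below 150 nt, with 8.51% and 11.9% of reads over 210 nt against 17.96% and 28.8% in wt.

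Ptgds was the other transcript for a secreted protein with a large tail difference. Its main transcript (ENSMUST00000114259, chromosome 2, 25466709 to 25469749) had tails of 156 and 178 nt in wt and 142 and 134 nt in dcat, from 17, 35, 18 and 41 reads. Both dcat libraries lay below both wt libraries. The limma difference was -29.0 nt (SE 12.2, 95% confidence interval -54.4 to -3.55), with an unadjusted p of 0.0274 and an adjusted p of 0.989, so it did not pass. With the reads of all 4 Ptgds transcripts pooled, the tails were 156 and 187 nt in wt and 132 and 137 nt in dcat (-36.8 nt, SE 10.2, limma adjusted p = 0.639 over the genes tested). Both SEs were larger than that of Insl3.

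Odf1, Pebp1 and Smcp also had shorter mean tails in both dcat libraries than in both wt libraries, and none passed. Odf1 (ENSMUST00000081966, chromosome 15, 38219203 to 38226735, 2 exons) had tails of 182 and 177 nt in wt and 167 and 168 nt in dcat. The difference was -11.4 nt (SE 4.89, 95% confidence interval -21.6 to -1.26, limma unadjusted p = 0.0293, adjusted p = 0.989). Odf1 reads with tails of 30 to 120 nt were 6.21% (Wilson 95% limits 3.51 to 10.8) and 6.86% (4.43 to 10.5) in wt and 16.2% (10.4 to 24.4) and 12.6% (9.64 to 16.4) in dcat. The median Odf1 read lay close in all 4 libraries, at 177 and 175 nt in wt and 174 and 175 nt in dcat, while the share of short tails was higher in both dcat libraries. Pebp1 had 157 and 148 nt in wt and 139 and 145 nt in dcat (-11.0 nt, SE 4.60). Smcp had 159 and 160 nt in wt and 149 and 156 nt in dcat (-7.21 nt, SE 4.92). With the reads of its 2 transcripts pooled, the Smcp difference was -5.25 nt (SE 4.19). Insl3 and these 4 are among the 74 transcripts (10.3%) for which both dcat libraries lay below both wt libraries.

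The most abundant spermatid transcripts differed by less than 3 nt between the genotypes, and there the measurement was most precise. Prm1, with 765 to 3959 reads, had tails of 139 and 144 nt in wt and 143 and 144 nt in dcat. Its difference was 2.243 nt (95% confidence interval -1.85 to 6.34). Prm2 had 145 and 147 nt in wt and 143 and 148 nt in dcat (-0.43 nt, interval -4.95 to 4.09). Tnp1 had 139 and 140 nt against 138 and 144 nt (1.37 nt, interval -3.70 to 6.44), and Tnp2 had 148 and 152 nt against 147 and 153 nt (0.153 nt, interval -5.38 to 5.68). For Prm2, Tnp1 and Tnp2 the dcat libraries lay on either side of the wt libraries. Each of these intervals leaves out a shortening of 10 nt.

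The remaining named transcripts had differences in both directions. Ldhc, the sperm lactate dehydrogenase, had 138 and 139 nt in wt and 143 and 151 nt in dcat (7.89 nt, SE 3.73, limma adjusted p = 0.989). Akap4 had 140 and 156 nt against 158 and 161 nt (11.3 nt, SE 8.48). Gapdhs had -3.44 nt (SE 7.16), Pgk2 3.27 nt (SE 7.01), Oaz3 1.29 nt (SE 6.30) and Tppp2 1.54 nt (SE 10.5), each smaller than its SE. Crisp2 had 150 and 163 nt in wt and 131 and 166 nt in dcat (-7.90 nt, SE 8.73), and only dcat replicate 1, with 34 reads, lay low. With the reads of its 5 transcripts pooled, the Crisp2 difference was -0.90 nt (SE 5.91). Odc1 and Apoe had fewer than 10 reads in at least 1 library and were not tested. The Odc1 transcript had tails of 150 and 155 nt in wt and 162 and 160 nt in dcat.

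**Figure D3:**
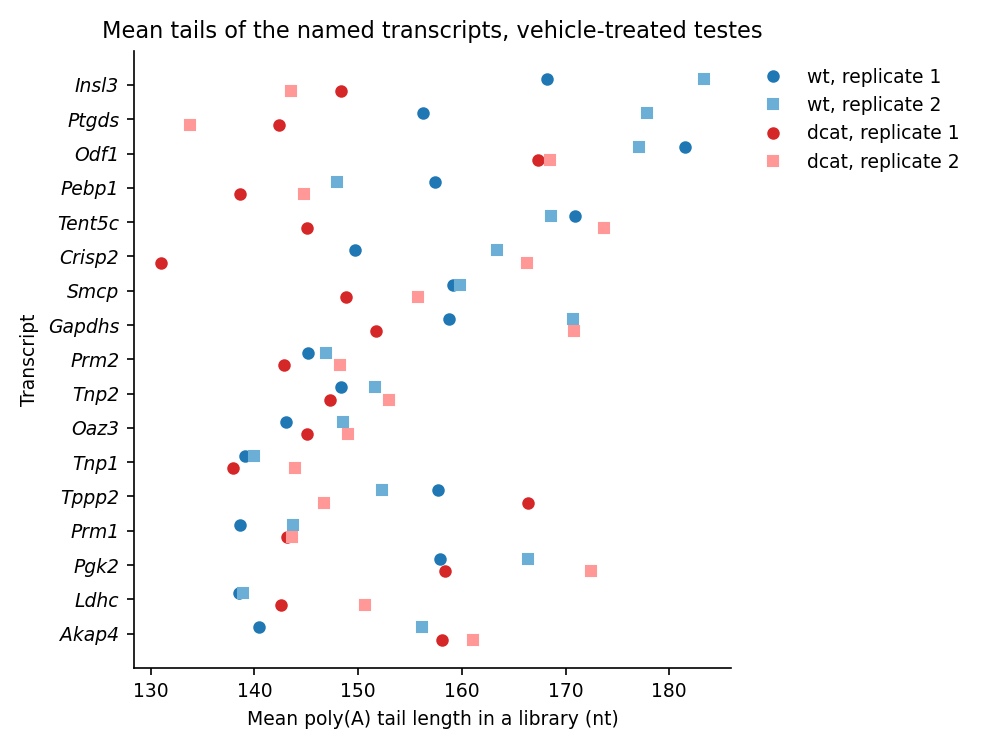
Mean poly(A) tail length (nt) of 17 named transcripts in each vehicle library, ordered by the difference of dcat minus wt from Insl3 at the top to Akap4 at the bottom, blue for wt and red for dcat. Insl3 and Ptgds have the widest gaps between the blue and red points, and Prm2, Tnp1 and Tnp2 have red points on both sides of the blue ones.

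Described by gene list, the median tail differences fell on both sides of 0. The 15 tested transcripts for secreted or ER-targeted proteins came from 12 genes. Of these transcripts, 1 passed the threshold (Insl3) and 9 had differences below 0, where 314 of all 720 (43.6%) were below 0. The median was -3.61 nt against 1.49 nt over all 720. Insl3 and Ptgds are both on this list, which was chosen with earlier results of these data known. The Sertoli transcript for the secreted chaperone Clu was among the 6 of that list above 0, with 188 and 191 nt in wt and 189 and 194 nt in dcat. Sertoli transcripts (6 tested) had a median of 5.03 nt. Outer dense fibre and head-tail coupling transcripts (11 tested) had a median of -5.19 nt, with 6 below 0. Fibrous and mitochondrial sheath transcripts (14 tested, from 10 genes) had a median of 1.42 nt and 6 below 0. The 10 sperm chromatin transcripts had a median of 2.44 nt, the 22 late spermatid transcripts 1.39 nt and the 9 sperm glycolysis transcripts 5.32 nt. Spermatocyte transcripts (4 tested) had a median of 10.4 nt and polyamine transcripts (3 tested) 6.73 nt. Apart from Insl3, which is also on the Leydig list, 0 transcripts of these lists passed the threshold.

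Tails of housekeeping groups followed their own levels in both genotypes. Mitochondrially encoded transcripts, which carry short tails added inside the mitochondrion, had library medians of 60.7 and 62.3 nt in wt and 63.5 and 62.7 nt in dcat (10 tested). Cytosolic ribosomal protein transcripts had 113 and 114 nt in wt and 109 and 120 nt in dcat (78 tested, median difference 1.80 nt). Nuclear genes of oxidative phosphorylation (35 tested) had a median difference of 3.38 nt, the proteasome (9 tested) 2.22 nt and tubulins (3 tested) 3.41 nt. Among the genes that add, bind or remove tails, 7 transcripts were tested and the median was 9.87 nt. Pabpc1, the main cytoplasmic poly(A)-binding protein, had 147 and 157 nt in wt and 159 and 164 nt in dcat. The 2 tested apoptosis transcripts, Dad1 and Cycs, were both below 0, at -13.7 and -19.5 nt. None of these passed the threshold.

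Below Insl3, the transcripts with the lowest p were read 12 to 23 times in the shallowest library, with 1 exception. On the shorter side they were Syce1, a synaptonemal complex protein (-29.9 nt, SE 10.3), the mitochondrial cochaperone Dnajc15 (-23.4 nt, SE 9.42), a transcript of the ribosomal protein gene Rpl12 (-27.7 nt, SE 11.3) and the gluconeogenic enzyme Fbp1 (-20.6 nt, SE 8.46). On the longer side they were Ybx3, a Y-box RNA-binding protein of germ cells (24.0 nt, SE 8.98), Spag6 of the sperm axoneme (33.8 nt, SE 13.5), the dynactin subunit Actr10 (29.7 nt, SE 12.01), Dbil5 (11.7 nt, SE 4.75) and the Hsp110 relative Hspa4l (24.96 nt, SE 10.2). The exception was Dbil5, with 81 to 497 reads and tails of 130 and 133 nt in wt and 140 and 146 nt in dcat. Ybx3 had 157 and 185 nt in wt and 207 and 183 nt in dcat, so its groups overlapped and only dcat replicate 1, with 16 reads, lay high. Another Ybx3 transcript (ENSMUST00000087865) differed by 4.92 nt. None of the 9 transcripts with the lowest p below Insl3 passed the threshold.

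Tail differences were measured more precisely for transcripts with more reads. The median absolute difference between the 2 wt libraries was 8.51 nt and between the 2 dcat libraries 10.8 nt. The median SE of a tail difference was 11.99 nt for the 441 transcripts with 10 to 19 reads in the shallowest library, 8.66 nt for the 217 with 20 to 49 and 5.80 nt for the 62 with 50 or more. Differences over 20 nt in either direction were measured for 52 transcripts (7.22%). Odf1, with 105 reads in its shallowest library, fell in the class with 50 or more, and its difference of -11.4 nt had an SE of 4.89 nt. A difference of that size is below the median SE of the class with 10 to 19 reads.

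**Figure D4:**
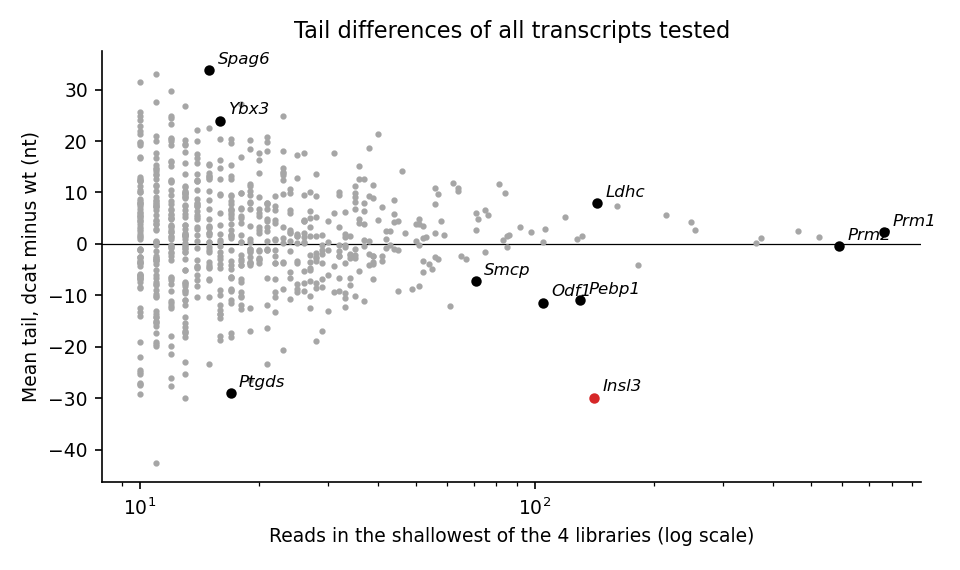
Difference in mean tail (nt, dcat minus wt) of the 720 transcripts tested against the reads in the shallowest of the 4 vehicle libraries (log axis), 1 point per transcript. The points narrow towards 0 as reads increase, Insl3 (red, 141 reads, -29.9 nt) lies below all transcripts with more than 100 reads, and Prm1 and Prm2 lie near 0 at the right.

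Finally, the genotype difference after vehicle was set beside that after busulfan, which depletes the testis of germ cells. The 2 comparisons share no mouse, but each of the 2 multiplexed libraries held 1 mouse of every group, so they share both of these. A direct test of the difference between them (limma, 339 transcripts with 10 reads in each of the 8 libraries) called 3 transcripts (0.885%), Insl3, Jak3 and Oaz3. Insl3 tails after busulfan were 181 and 187 nt in wt and 105 and 110 nt in dcat, from 930 to 4197 reads. The wt tails were thus near those after vehicle, and the dcat tails were shorter. The genotype difference was -29.9 nt after vehicle and -76.3 nt after busulfan, and the difference between them was 46.5 nt (SE 6.20, adjusted p = 0.00979).

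Jak3, a cytokine receptor kinase whose transcript (ENSMUST00000051995) shares its 3′ end with Insl3, had 134 and 141 nt in wt and 117 and 141 nt in dcat after vehicle, from 17 to 44 reads. After busulfan it had 170 and 177 nt in wt and 106 and 102 nt in dcat, close to Insl3 there. The difference between the treatments was 60.8 nt (limma adjusted p = 0.0422). Oaz3 had no measured genotype difference beyond its error after vehicle (1.29 nt), and 68.6 and 63.9 nt in wt against 112 and 127 nt in dcat after busulfan, so the treatments differed by -51.8 nt (limma adjusted p = 0.0422). The Insl3 call was kept when any 1 library was left out. The Jak3 call was kept only without either dcat vehicle library, and the Oaz3 call only without dcat busulfan replicate 1. In a fit without a trend in the spread none of the 3 was called.

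Ptgds, Odf1, Pebp1 and Smcp were shorter in dcat by point estimate under both treatments. Ptgds differed by -29.0 nt after vehicle and by -67.4 nt after busulfan, Odf1 by -11.4 and -50.1 nt, Pebp1 by -11.0 and -26.9 nt, and Smcp by -7.21 and -30.8 nt. After busulfan Ptgds, Odf1 and Pebp1 passed the threshold (limma adjusted p = 3.15e-09, 0.0066 and 0.00236) and Smcp did not (0.0528). After vehicle none of them passed. The direct test between treatments did not call Ptgds, Odf1, Pebp1 or Smcp (limma adjusted p = 0.180, 0.582, 0.633 and 0.670). Not every chosen gene kept its sign. Tppp2 differed by 1.54 nt after vehicle and by -53.0 nt after busulfan, where it passed (limma adjusted p = 0.0135). Crisp2 differed by -7.90 and 58.1 nt and also passed after busulfan (limma adjusted p = 0.000571). For these, too, the direct test made no call (limma adjusted p = 0.180 and 0.164). Over all transcripts, 16 of 1188 (1.35%) passed the threshold for a genotype difference after busulfan.

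**Figure D5:**
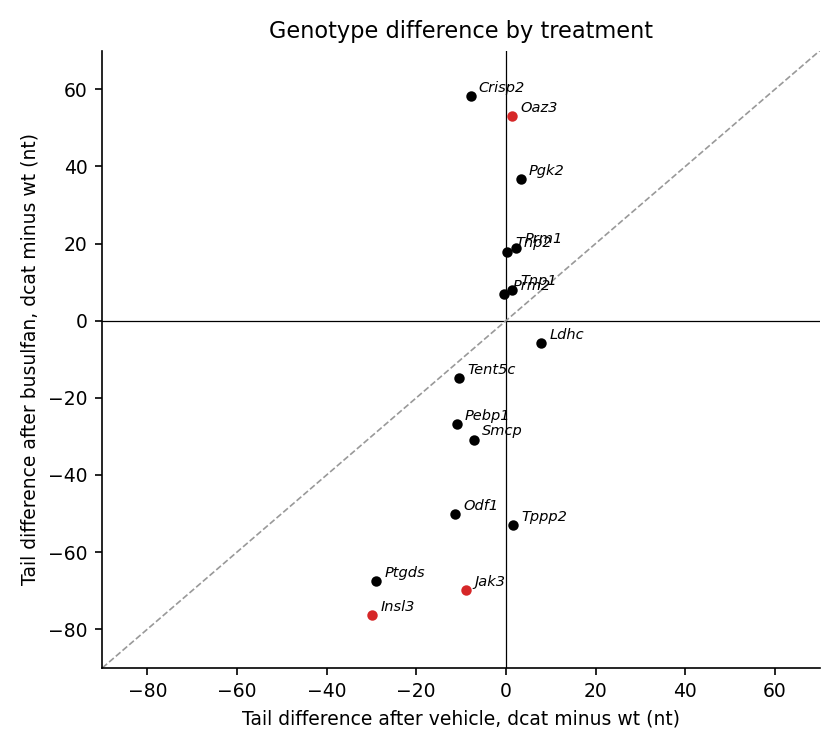
Genotype difference in mean tail (nt, dcat minus wt) after vehicle (horizontal) and after busulfan (vertical) for 16 transcripts, with the line of equal differences dashed. Red marks Insl3, Jak3 and Oaz3, for which the difference between treatments passed the threshold, and the horizontal spread, from -29.9 nt (Insl3) to 7.89 nt (Ldhc), is narrower than the vertical one.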

How the data were processed

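The deposited files were a table of counts, as whole reads per transcript without normalization, and a table with the tail length of each read in nt, estimated by the authors with Nanopolish. Per the study's methods, Guppy served for basecalling, Minimap2 for alignment to GENCODE (GRCm38) and Deeplexicon for demultiplexing. Reads with a passing tail and a confident barcode were kept, as were transcripts that reached 10 reads in both replicates of a group. The filter, being set over all 4 groups, keeps transcripts that are scarce after vehicle. Deposited DESeq2 tables hold the authors' log2 fold changes and p-values and were not used. Counts equalled the reads with a tail in all libraries, 176 read names were listed more than once, and all were kept.

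Read counts were tested in R 4.3.3 with edgeR 4.0.16 (quasi-likelihood, TMM, all 8 libraries as 4 groups; DESeq2 1.42.0 as an alternative). Mean tails per transcript were compared with limma 3.58.1 (eBayes, prior variance following log2 mean reads, 4 vehicle libraries, 10 or more reads in each). Tests were two-sided with Benjamini-Hochberg adjustment over all transcripts tested and a threshold of 0.05. Scripts were tested on simulated data. CPM of gene lists are not TMM-scaled. The depth, 29574 to 129074 reads per library, limits the precision.

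Replicate numbers mark the 2 multiplexed libraries, each with 1 mouse per group, per the labels, so they pair the samples. Deviations of same-numbered libraries correlated across 720 transcripts at r = -0.08 (log2 CPM) and -0.06 (mean tail). Blocked values are given where they change a call.

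Named transcripts are each gene's most read transcript. They are 19 chosen genes, transcripts past the threshold, those with the lowest p up to 5 per direction, and the most read members of each list. Jak3 was added after its values were seen. The members and lists were chosen with earlier results of these data known. Alternatives were other scalings, filters, tests, summaries, weights, a replicate block and leaving out each library.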

Additional observations from a re-analysis of the deposited data

Results flagged for a closer look

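A genotype difference in tails that differed between vehicle and busulfan, by a direct limma test over 339 transcripts, drew attention to 3 transcripts. The value is the dcat minus wt difference after vehicle less that after busulfan. It was 46.5 nt for Insl3 (adjusted p = 0.00979), 60.8 nt for Jak3 (adjusted p = 0.0422) and -51.8 nt for Oaz3 (adjusted p = 0.0422). Jak3 and Insl3 share their last exon, so their reads are not independent. The values for Jak3 rest on 17 to 44 reads per vehicle library, and those for Oaz3 on 34 to 158 reads per busulfan library.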

How the results depend on the processing

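The tail count was 0 with medians (Insl3 -34.3 nt, limma adjusted p = 0.894), log2 lengths (adjusted p = 0.567), eBayes without a trend (0.991), the replicate block (0.981) and the methods' t-test (0.983, with 28 at the methods' unadjusted threshold), and it ranged from 0 (without wt vehicle replicate 2) to 9 (without dcat vehicle replicate 2, with 4 longer and 5 shorter) when 1 library was left out. With a minimum of 5 or 20 reads, weights by reads, centred libraries, all 8 libraries, reads named once or reads pooled by gene it stayed 1. The count of abundance calls was 0 in all alternatives except the fit of only the 4 vehicle libraries, which gave 1 (Hbb-bs), and that call was lost with the replicate block in that fit, which was added after seeing the data. The count of treatment interactions was 0 without a trend, 8 with centred libraries, 1 with medians, and 1 to 3 when 1 library was left out; the block left it at 3. The cause of these moves was not tested.

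With equal weight per transcript, the difference in the mean over all reads turned to 1.33 nt, in the share of 30 to 120 nt to -0.377 percentage points and in that of 120 to 210 nt to 0.281. With 1 library left out they ranged from -5.34 to 4.71 nt, from -2.69 to 4.92 and from -3.95 to 1.74 percentage points. The block changed no other call.

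Of the named values, 33 of 300 recomputed read-count changes and 30 of 387 tail differences turned sign, and none of these was called in the main fit. Log2 fold changes turned to -0.072 (Ptgds) and -0.0115 (Pebp1) with RLE scaling, -0.00453 (Ptgds) with filterByExpr and -0.0137 (Ptgds) with only the vehicle libraries. Leaving out 1 library gave -0.11 to 0.29 (Tent5c), -0.81 to 0.20 (Insl3), -0.27 to 0.53 (Ptgds), -0.27 to 0.0037 (Odf1), -0.28 to 0.12 (Prm1), -0.32 to 0.17 (Prm2), -0.10 to 0.23 (Tnp1), -0.34 to 0.16 (Tnp2), -0.49 to 0.25 (Ldhc), -0.28 to 0.56 (Odc1), -0.49 to 0.26 (Crisp2), -0.48 to 0.25 (Tppp2), -0.13 to 0.41 (Pebp1), -0.40 to 0.16 (Apoe), -1.21 to 0.20 (Akap4), -0.39 to 0.53 (Gapdhs) and -0.61 to 0.22 (Pgk2). Tail differences turned to 0.14 (Prm2) and -0.335 (Tnp2) nt with medians, 0.00591 (Prm2), -0.00465 (Tnp2) and -0.00977 (Oaz3) on the log2 scale, 1.26 (Prm2), 5.16 (Crisp2), -5.25 (Tppp2) and 1.13 (Gapdhs) nt with weights and -0.659 (Tnp1), -1.88 (Tnp2), -0.736 (Oaz3) and -0.488 (Tppp2) nt with centring. Leaving out 1 library gave, in nt, -24.7 to 3.96 (Tent5c), -0.313 to 4.8 (Prm1), -3.15 to 2.29 (Prm2), -1.63 to 4.37 (Tnp1), -2.67 to 2.98 (Tnp2), -1.45 to 4.04 (Oaz3), -25.6 to 9.76 (Crisp2), -8.27 to 11.4 (Tppp2), -13 to 6.09 (Gapdhs), -3.77 to 10.3 (Pgk2) and -20.7 to 2.76 (Jak3). Without dcat vehicle replicate 2, Crisp2 (-25.6 nt), Ybx3 (35.8), Actr10 (48.3) and Dnajc15 (-38.2) also passed.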
